A study of Mus musculus with 10 samples.

Results

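The BCL2 family decides whether a cell opens the outer membrane of its mitochondria and dies by apoptosis. Its 10 members described here were taken by gene symbol from a table of 16936 protein-coding genes, and all 10 were found. They were measured by total RNA sequencing in cultured mouse bone marrow-derived macrophages, with 7 days of growth in GM-CSF (50 ng/mL). The 10 samples were 5 left untreated and 5 exposed for 24 h to PLG, which the series' design text gives as human plasminogen, the circulating precursor of the protease plasmin. GM-CSF was part of the culture of both groups, and it is itself a survival factor that gives marrow cells both macrophage and dendritic cell features. The labels give no mouse strain, sex or age, no dose of PLG and no control preparation, so plasminogen itself and anything else in the added material cannot be told apart. Nothing says whether replicates came from separate mice or cultures, and p-values then measure only the spread between these samples, which may be technical.

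The family has 3 classes of protein. Pro-survival members (Bcl2, Bcl2l1, Mcl1 and the Bcl2a1 paralogs) hold the death-promoting members in check, the effectors Bax and Bak1 form the pores that release cytochrome c, and BH3-only proteins such as Bim, from Bcl2l11, and Bid carry death signals to both. In myeloid cells Mcl1 is known as a short-lived protein on which survival depends, and Bcl2a1 genes as targets of NF-kB in activated phagocytes. Levels are given as FPKM, reads scaled to gene length and library size, which allows levels of different genes to be compared approximately. The length used for each member is that of all its annotated exons together. This may exceed the length of the transcripts the cells made, by an amount that can differ between genes. Differences are of log2(FPKM + 1), PLG minus untreated, from limma with Benjamini-Hochberg adjustment over all 9997 genes with at least 1 FPKM in 5 of the 10 samples. The added 1 understates the change of low genes.

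The libraries held 28426106 to 37680113 reads on the table's genes in the untreated group and 33547089 to 64214553 with PLG. These reads were recovered from the steps of the FPKM values. Among low values precise enough to fix the read number, 46.7% to 52.2% per library were odd, whereas a library total taken 2 times too high would make them all even. Pairs of samples of the same group correlated across genes at 0.976 to 0.995, and pairs from different groups at 0.847 to 0.868. All 8 macrophage markers were present, with a summed level of 5874 to 7395 FPKM in untreated samples and 3137 to 3243 FPKM with PLG. The lower sum came mainly from Lyz2 (means 5792 and 2000 FPKM). Also lower with PLG were Cd68 (356 and 243 FPKM), Csf1r (245 and 213.5 FPKM), Itgam (38.2 and 22.4 FPKM) and Mertk (23.5 and 6.19 FPKM). In contrast Cd14 (33.7 and 508 FPKM) and Adgre1 (80.0 and 177 FPKM) were higher with PLG, and Fcgr1 was at 15.5 and 16.7 FPKM. The 7 dendritic cell markers summed to 305 to 345 FPKM in untreated samples and 678 to 749 FPKM with PLG, with Xcr1 under 1 FPKM in all samples. The higher sum came from Ccr7 (means 38.1 and 542 FPKM), while Itgax (270.2 and 156 FPKM) and Clec9a (9.67 and 2.94 FPKM) were lower with PLG. Of 8 neutrophil markers 6 were in the table and summed to 393 to 408 and 136 to 162 FPKM, nearly all from Mmp8, with Ly6g and Mpo under 1 FPKM throughout. Mmp8 (means 387 and 129 FPKM) and S100a9 (5.32 and 3.80 FPKM) were lower with PLG. S100a8 (7.07 and 11.9 FPKM) and Camp (0.254 and 2.40 FPKM) were higher. All measured T, B and NK cell markers (4, 5 and 4 genes) and Klf1, the single erythroid marker in the table, were under 1 FPKM in all samples. The 4 mast cell and basophil markers in the table summed to 7.40 to 17.2 FPKM in untreated samples and 8.24 to 11.8 FPKM with PLG, mostly from Kit. The 6 stromal markers summed to 0.534 to 0.846 and 5.38 to 6.73 FPKM, with Pdgfrb, at 5.18 FPKM with PLG, the single one above 1 FPKM. In bulk RNA fewer cells of a type and less RNA per cell cannot be told apart, and the part of these shifts in the results on the BCL2 family was not tested.

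All 10 members were expressed in both groups and passed the filter on low values. With PLG 6 of them rose, 2 fell and 2 did not pass the test, so 8 of 10 were called in a comparison that called 60.4% of all genes tested, 29.1% as higher and 31.3% as lower. The 5 PLG values lay wholly outside the 5 untreated values for the same 8 members, against 47.2% of all genes tested. Counts over 10 members are not read as a result here, and what sets the members apart from each other is size. The 3 Bcl2a1 paralogs rose by 1.70 to 2.04 on the log2 scale, while the other 5 called members changed by less than 1. The members' median difference was 0.39, beside -0.02 for all genes tested. The 3 Bcl2a1 paralogs are near-identical and may share reads. They are therefore not 3 separate members in these counts or in this median. An exact permutation test (two-sided, on group means) gave p = 0.00794 for each of the 8 called members, the smallest that 252 assignments of 5 and 5 samples allow.

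**Figure D1:**
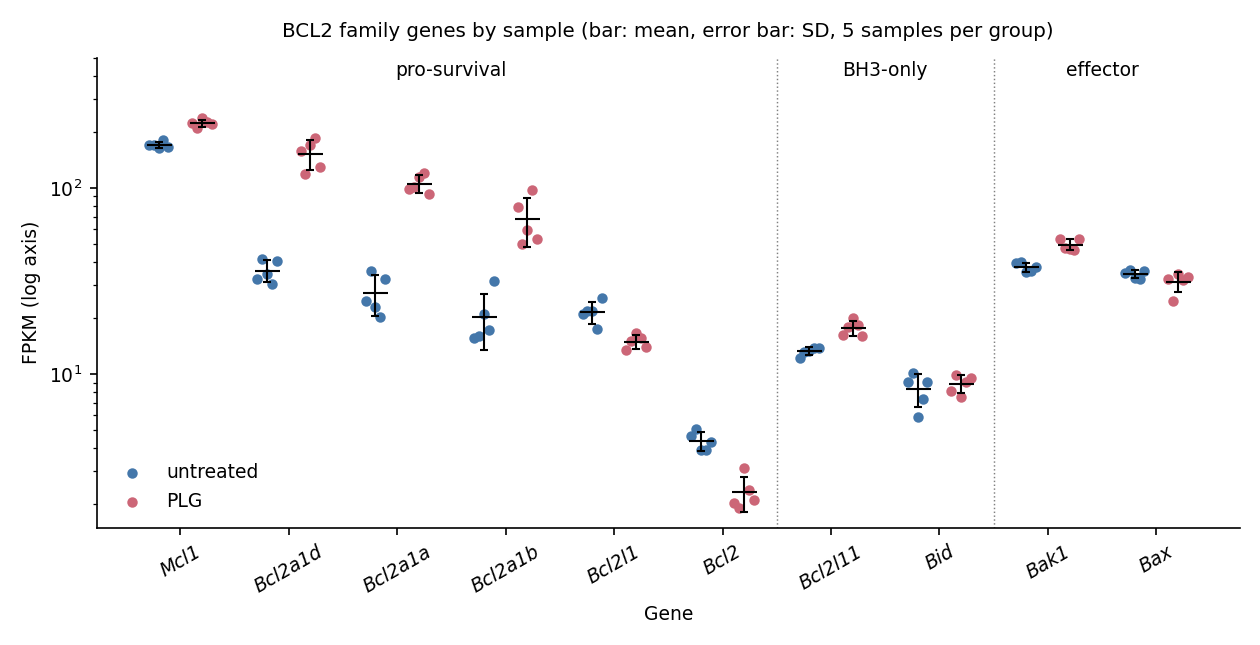
FPKM (log axis) of each BCL2 family gene in the 5 untreated (blue) and 5 PLG samples (red), ordered by class, with the group mean (horizontal bar) and SD (error bar). The Bcl2a1 paralogs lie about 3 to 4 times higher with PLG, Bcl2l1 and Bcl2 lie lower, and the groups overlap for Bid and Bax.

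Mcl1 (ENSMUSG00000038612.16, GRCm38 chromosome 3, 95658788 to 95663176, plus strand), the short-lived guard of the outer membrane, was the most abundant member by listed FPKM in every sample. In untreated samples 1 to 5 it stood at 171, 169, 163, 180.4 and 165 FPKM, and in PLG samples 1 to 5 at 223, 209, 236, 227 and 219 FPKM. Every PLG sample lay above every untreated one. The means were 169.8 ± 6.65 (SD, n = 5) and 223 ± 9.85 FPKM, a difference of 0.39 (SE 0.045, limma adjusted p = 4.60e-06), or a ratio of means of 1.31. With quantile normalization the difference was smaller, 0.14, and still passed (limma adjusted p = 0.0122). The level put Mcl1 at the 98.6th percentile of tested genes without PLG and at the 98.8th with it.

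The Bcl2a1 genes encode A1, a pro-survival protein that mice carry in several near-identical copies. Bcl2a1d (ENSMUSG00000099974.1, minus strand, 88723285 to 88731914), Bcl2a1a (ENSMUSG00000102037.1, plus strand, 88956900 to 88962419) and Bcl2a1b (ENSMUSG00000089929.1, plus strand, 89199209 to 89207827) lie within 485 kb of GRCm38 chromosome 9. How far their values can be separated depends on how much their transcripts differ. Their coding sequences of 519 bases differ between Bcl2a1a and Bcl2a1b at 11 positions, between Bcl2a1a and Bcl2a1d at 7, and between Bcl2a1b and Bcl2a1d at 6, which is 97.9%, 98.7% and 98.8% identity. The first 90 coding bases, from the GENCODE M21 transcripts, hold 6 of the 12 positions at which the 3 genes are not all alike. They are shown because these positions are what allows a read to be assigned, and capitals mark them.
Bcl2a1a: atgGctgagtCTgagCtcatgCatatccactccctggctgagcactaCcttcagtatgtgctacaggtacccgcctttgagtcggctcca
Bcl2a1b: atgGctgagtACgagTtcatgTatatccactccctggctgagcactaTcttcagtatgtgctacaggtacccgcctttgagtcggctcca
Bcl2a1d: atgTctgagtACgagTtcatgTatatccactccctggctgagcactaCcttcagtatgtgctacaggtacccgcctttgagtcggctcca
Elsewhere in the coding sequence Bcl2a1a and Bcl2a1d run without a difference for 314 bases. Of all windows of 50 bases in the transcripts, 31.0% of Bcl2a1a, 20.8% of Bcl2a1b and 20.5% of Bcl2a1d were found in no other annotated gene. At 100 bases the shares were 56.5%, 43.2% and 45.3%. Neither read length nor the treatment of multi-mapping reads is stated in the labels or notes, so the division of reads among the paralogs is uncertain. Their sum is firmer in that respect. It would still be too low beside other genes, in both groups, if reads matching several genes were left out.

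All 3 paralogs rose steeply with PLG. Bcl2a1d went from 32.5, 41.6, 34.4, 30.5 and 40.4 FPKM in untreated samples 1 to 5 to 158, 118, 169, 185 and 129 FPKM in PLG samples 1 to 5. Bcl2a1a went from 24.7, 35.9, 22.9, 20.3 and 32.3 FPKM to 98.2, 101, 114, 120.4 and 92.8 FPKM in the same order. For both genes even the lowest PLG sample was more than 2 times the highest untreated one. Bcl2a1b went from 15.6, 15.97, 20.9, 17.2 and 31.7 FPKM to 79.3, 49.9, 59.5, 97.0 and 53.2 FPKM. It varied more than the others within each group, with a coefficient of variation of 33.2% in untreated and 29.4% in PLG samples, and its groups came closest to each other at untreated 5 and PLG 2.

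The difference was 2.04 for Bcl2a1d (35.9 ± 4.86 to 152 ± 27.8 FPKM, SE 0.12, limma adjusted p = 4.46e-09) and 1.94 for Bcl2a1a (27.2 ± 6.61 to 105 ± 11.6 FPKM, SE 0.13, limma adjusted p = 2.34e-08). For Bcl2a1b it was 1.70 (20.3 ± 6.73 to 67.8 ± 19.96 FPKM, SE 0.20, limma adjusted p = 6.91e-06). Bcl2a1b shares 401 of its 817 exonic bases, 49.1%, with the gene model Gm29094 on the same strand, which was listed at means of 0.0754 and 0.0828 FPKM. Reads from the shared part may have been left out or divided, so its level against the other paralogs is uncertain. Summed, the 3 genes went from 83.4 ± 15.2 to 325 ± 54.9 FPKM, and in a fit with the sum in place of the single genes the Bcl2a1a, Bcl2a1b and Bcl2a1d total rose by 1.95 (SE 0.13, limma adjusted p = 1.32e-08). The paralogs kept similar parts of that sum: Bcl2a1d made up 43.4% ± 2.62 of it in untreated and 46.6% ± 1.94 in PLG samples, Bcl2a1a 32.5% ± 3.80 and 32.8% ± 3.30, and Bcl2a1b 24.2% ± 5.11 and 20.6% ± 3.10, and the ranges overlapped between groups for each of them.

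The promoters of the 3 paralogs are also alike, and they are shown because these genes moved together. The RefSeq table (GRCm38.p6) holds 13 promoters for the 10 members, each of 250 bases before and 50 after a start site. Both strands were searched for TGANTCA and for GAGGAAGT, a sequence bound by the myeloid factor PU.1. TGANTCA is a loosened form of the AP-1 core that allows any base in the middle, where the core has C or G. TGANTCA was found in the promoters of Bcl2a1a, Bcl2a1b and Bcl2a1d and of no other member, and in 7.81% of all 32851 promoters of the table. In these paralogs the match reads TGAATCA, with A in the middle, so it is not the AP-1 core itself. GAGGAAGT was found in the same 3 and in that of Bak1, and in 3.20% of all. Below are 90 bases from the upstream part of each promoter, with matches to either motif in capitals. The fourth line is Bcl2a1c, a related gene outside the family set, for comparison.
Bcl2a1a, chr9:88956784-88956873, plus strand: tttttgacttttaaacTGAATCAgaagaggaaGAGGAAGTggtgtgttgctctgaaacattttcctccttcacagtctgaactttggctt
Bcl2a1b, chr9:89199093-89199182, plus strand: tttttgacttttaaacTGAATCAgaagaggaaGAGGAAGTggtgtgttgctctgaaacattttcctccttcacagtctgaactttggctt
Bcl2a1d, chr9:88731891-88731980, minus strand: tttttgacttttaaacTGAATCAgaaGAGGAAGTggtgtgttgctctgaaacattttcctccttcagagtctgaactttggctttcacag
Bcl2a1c, chr9:114329889-114329978, plus strand: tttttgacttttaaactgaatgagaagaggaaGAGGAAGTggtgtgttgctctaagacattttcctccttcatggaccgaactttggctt
Counted from 1 at the 5′ end of the printed stretch, Bcl2a1c differs from Bcl2a1a by C22G, which falls in the TGANTCA match, and at 6 later positions. Bcl2a1c was at 0.115 ± 0.136 FPKM in untreated and 0.741 ± 0.435 FPKM in PLG samples, under the filter on low values, and reads of its paralogs may be among its own. The motifs were chosen after the promoters were seen, and the printed stretches of Bcl2a1a and Bcl2a1b are identical. The matches therefore describe these letters only, and the shares of all promoters beside them are no test.

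Of 4 further motifs searched in the same way, the NF-kB consensus matched 1 of the 13 promoters, that of Bcl2l1 (4.51% of all promoters), and the p53 half-site consensus that of Bax (8.36% of all). GTAAACA, the forkhead core, matched that of Bcl2l11 (3.65% of all). TTCNNNGAA, the core bound by STAT factors, matched none of the 13 and 8.30% of all promoters. Sites outside these windows were not searched.

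Bcl2l1 (ENSMUSG00000007659.18, chromosome 2, 152780668 to 152831728, minus strand), which encodes the pro-survival protein Bcl-xL, fell with PLG. It was at 20.98, 21.8, 21.8, 17.4 and 25.5 FPKM in untreated samples 1 to 5 and at 13.5, 15.1, 16.5, 15.6 and 13.9 FPKM in PLG samples 1 to 5. Untreated 4 came closest to the PLG group, and the groups did not overlap. The means were 21.5 ± 2.88 and 14.9 ± 1.2497 FPKM, a difference of -0.49 (SE 0.088, limma adjusted p = 0.000257).

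Bcl2 (ENSMUSG00000057329.7, chromosome 1, 106538178 to 106714274, minus strand), the founding member, was the least abundant of the 10 by listed FPKM in both groups and also fell. It was at 4.66, 5.04, 3.92, 3.90 and 4.34 FPKM in untreated samples 1 to 5 and at 2.04, 1.92, 3.15, 2.38 and 2.11 FPKM in PLG samples 1 to 5. PLG 3 was the highest of its group and still below every untreated sample. The means were 4.37 ± 0.491 and 2.32 ± 0.491 FPKM, so the plain ratio of untreated to PLG was 1.88, and the difference was -0.70 (SE 0.11, limma adjusted p = 5.70e-05). With a pseudocount of 5, which damps low genes, Bcl2 fell by 0.36. The gene rests on 717 to 1814 reads per sample, and 6.09% of its exonic bases overlap an antisense gene, D630008O14Rik, which was not analysed here.

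**Figure D2:**
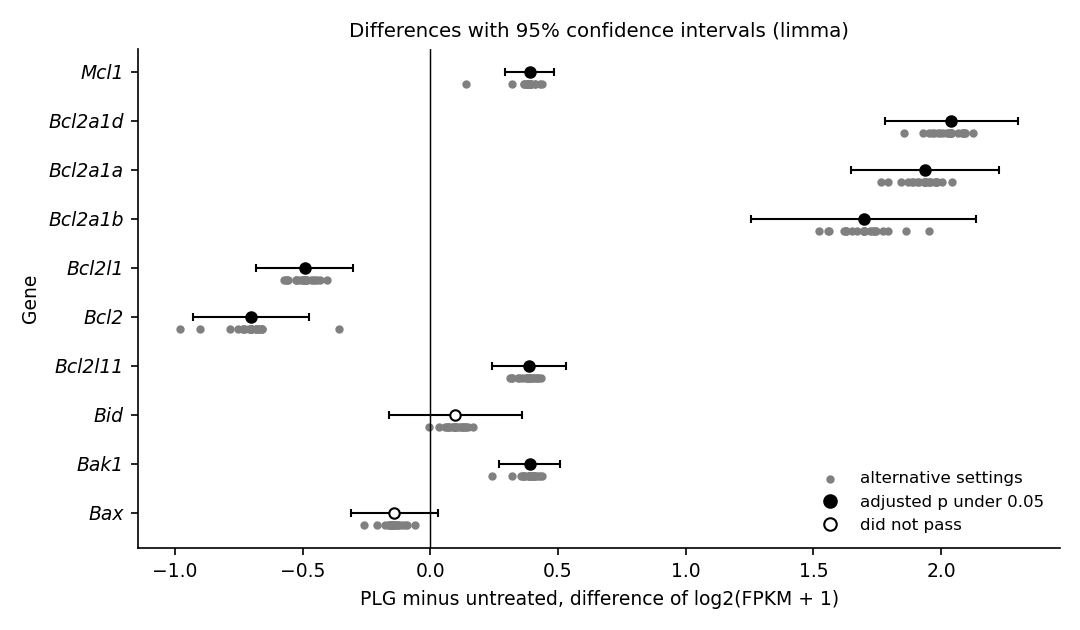
Difference of log2(FPKM + 1), PLG minus untreated, for each BCL2 family gene, with its 95% confidence interval (black), and the same difference under the alternative settings (grey points below). Filled circles passed at an adjusted p under 0.05 and open circles, Bid and Bax, did not. The intervals of Bcl2l1 and Bcl2 lie below 0, and those of the 3 Bcl2a1 paralogs lie above 1.

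With these unequal changes the make-up of the transcripts of the 6 pro-survival members shifted. The 6 pro-survival genes summed to 279 ± 14.5 FPKM in untreated and 565 ± 62.9 FPKM in PLG samples, without overlap, a ratio of 2.02. Bcl2l2, a pro-survival gene outside the family set, was at means of 7.55 and 7.995 FPKM and is not in this sum. Mcl1 made up 61.0% ± 4.51 of that sum in untreated samples and 39.7% ± 3.15 with PLG, although its own level rose. The Bcl2a1 paralogs together made up 29.7% ± 3.90 and 57.2% ± 3.37. Bcl2l1 made up 7.69% ± 0.785 and 2.66% ± 0.284, and Bcl2 1.57% ± 0.155 and 0.410% ± 0.0681. Within a sample Mcl1 was 1.58 to 2.65 times the summed Bcl2a1 level without PLG and 0.563 to 0.797 times with it, so Mcl1 was above the Bcl2a1 sum in all 5 untreated samples and below it in all 5 PLG samples. These sums and ratios are descriptions made from the values above, with no test of their own. If reads matching several genes were left out of the counts, the Bcl2a1 level would be too low in both groups. The percentages, and the side of 1 on which the Mcl1 ratio lies, therefore depend on how such reads were treated.

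**Figure D3:**
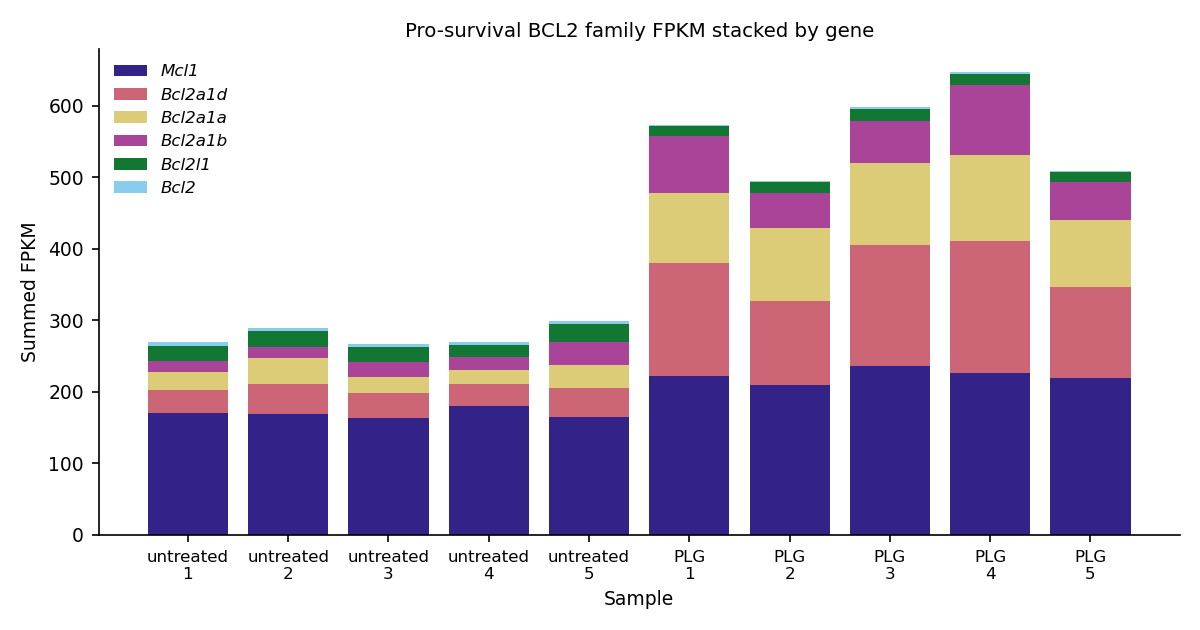
Summed FPKM of the 6 pro-survival genes in each sample, stacked by gene. The 5 untreated samples reach 267 to 299 FPKM, most of it from Mcl1, and the 5 PLG samples reach 496 to 647 FPKM, most of it from the Bcl2a1 paralogs.

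Among the death-promoting members, Bcl2l11 rose moderately. Its product Bim is a BH3-only protein that binds all pro-survival members and is known as the main trigger of death when growth factors are withdrawn from blood cells. Bcl2l11 (ENSMUSG00000027381.16, chromosome 2, 128126038 to 128162547, plus strand) was at 12.3, 13.1, 13.2, 13.8 and 13.9 FPKM in untreated samples 1 to 5 and at 16.1, 17.8, 19.9, 18.5 and 15.99 FPKM in PLG samples 1 to 5. All PLG samples lay above all untreated ones. The means were 13.2 ± 0.649 and 17.7 ± 1.66 FPKM, a difference of 0.39 (SE 0.066, limma adjusted p = 0.000186). Its forkhead core lies 227 bases upstream of 1 of its 2 annotated starts and is shown in capitals, since forkhead factors of the FOXO class are known regulators of this gene.
Bcl2l11, chr2:128125791-128125837, plus strand: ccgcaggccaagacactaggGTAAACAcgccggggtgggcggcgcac
The FOXO genes on the list of regulators, named here after their values were seen, moved in opposite directions. Foxo3 fell from 20.8 ± 1.08 to 12.4 ± 0.575 FPKM (difference -0.71, limma adjusted p = 6.06e-08), and Foxo1 rose from 2.12 ± 0.324 to 3.86 ± 0.262 FPKM (difference 0.64, limma adjusted p = 2.25e-05).

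Bid (ENSMUSG00000004446.12, chromosome 6, 120891930 to 120916853, minus strand) encodes the BH3-only protein that caspase 8 cuts, which links death receptors to mitochondria. It was at 9.02, 10.2, 5.88, 7.39 and 9.05 FPKM in untreated samples 1 to 5 and at 8.15, 9.94, 7.56, 9.11 and 9.52 FPKM in PLG samples 1 to 5. All PLG values lay inside the range of the untreated ones. The difference of 0.10 (SE 0.12) did not pass (limma adjusted p = 0.509, exact two-sided permutation p = 0.508), and its 95% confidence interval ran from -0.16 to 0.36. Of the exonic bases of Bid 17.7% overlap Bcl2l13 on the opposite strand, and since the strand setting of the counting is not given, reads of the 2 genes may be mixed there. Bcl2l13 was at 4.205 ± 0.512 FPKM in untreated and 4.64 ± 0.751 FPKM in PLG samples.

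The 2 effectors differed. Bak1 (ENSMUSG00000057789.14, chromosome 17, 27019810 to 27029009, minus strand), whose product sits in the outer mitochondrial membrane, was at 39.3, 40.0, 35.5, 35.6 and 37.5 FPKM in untreated samples 1 to 5. In PLG samples 1 to 5 it was at 53.3, 47.8, 46.9, 46.6 and 52.9 FPKM, all above the untreated group. It rose from 37.5 ± 2.08 to 49.5 ± 3.32 FPKM, a difference of 0.39 (SE 0.056, limma adjusted p = 3.76e-05), and with quantile normalization by 0.24. Overlap with Ggnbp1 models on the opposite strand covers up to 18.2% of its exonic bases, and these models were listed at no more than 0.417 FPKM on average.

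Bax (ENSMUSG00000003873.11, chromosome 7, 45461697 to 45466898, minus strand), whose product moves from the cytosol to mitochondria, was at 34.7, 36.2, 32.9, 32.6 and 35.6 FPKM in untreated samples 1 to 5. In PLG samples 1 to 5 it was at 32.3, 24.6, 34.4, 32.0 and 33.1 FPKM. PLG 2 stood apart below the others, and the groups overlapped. The means were 34.4 ± 1.62 and 31.3 ± 3.84 FPKM, and the difference of -0.14 (SE 0.079, 95% confidence interval -0.31 to 0.03) did not pass (limma adjusted p = 0.139). Of its exonic bases 12.2% are shared with the gene model Gm45808 on the same strand, which was not analysed here. Without PLG 2 the difference was -0.06 (limma adjusted p = 0.332). Bax passed as lower in 2 of 24 alternatives, with quantile normalization (-0.26, limma adjusted p = 0.00520) and after removal of repeat-like gene models with common-sum scaling (-0.21, limma adjusted p = 0.0154).

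Ratios within a sample show how pairs of members moved against each other. The ratio of Bcl2l11 to Bcl2l1 was 0.626 ± 0.0959 in untreated and 1.18 ± 0.0209 in PLG samples. It was below 1 in all 5 untreated and above 1 in all 5 PLG samples. The ratio of Bak1 to Bax was 1.09 ± 0.0293 without PLG and 1.60 ± 0.221 with it, and PLG 2, the sample low in Bax, gave the highest value of 1.94. The 6 pro-survival genes summed to 3.88 ± 0.172 times Bax plus Bak1 without PLG and 7.01 ± 0.855 times with PLG. These ratios are of transcript levels per length, and the pro-survival sum shares the uncertainty of the Bcl2a1 level. Since the lengths count all annotated exons, the side of 1 on which a ratio lies is uncertain.

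**Figure D4:**
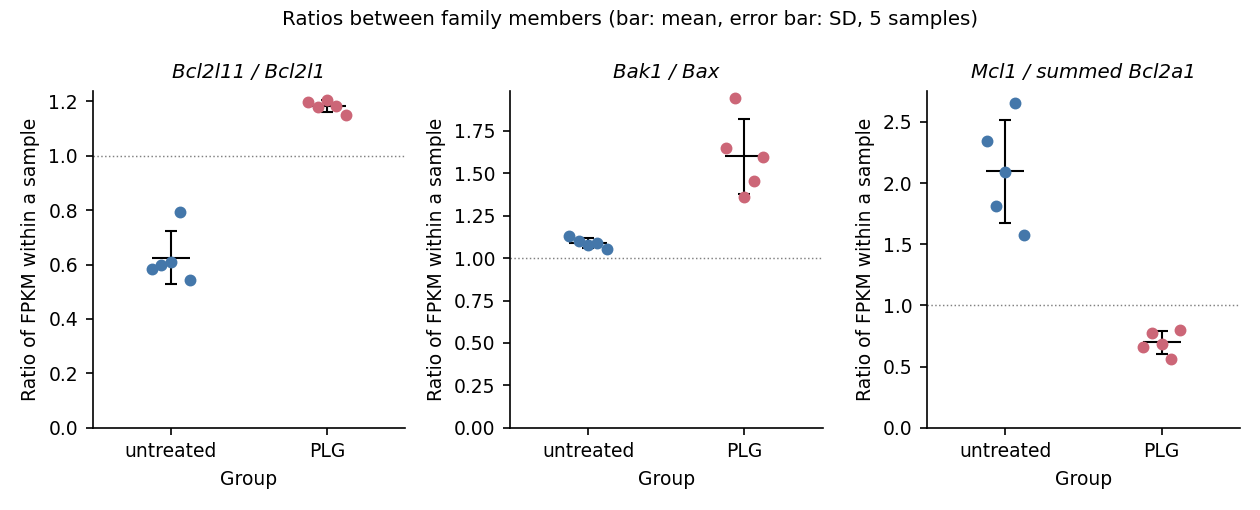
Ratios of FPKM within each sample for Bcl2l11 over Bcl2l1, Bak1 over Bax and Mcl1 over the summed Bcl2a1 paralogs, with 5 points per group, the mean (bar) and SD (error bar); the dotted line marks a ratio of 1. The first ratio moves from 0.544 to 0.791 without PLG to 1.15 to 1.21 with it, and the last from above 1 to below 1.

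The order of the levels changed between the groups. Without PLG, Mcl1 was followed by Bak1, Bcl2a1d, Bax, Bcl2a1a, Bcl2l1, Bcl2a1b, Bcl2l11, Bid and Bcl2. Neighbours from Bak1 to Bcl2a1b had overlapping ranges, while Mcl1 stood clear above them and Bcl2l11, Bid and Bcl2 clear below and apart from each other. With PLG, Mcl1 was followed by Bcl2a1d, Bcl2a1a, Bcl2a1b, Bak1, Bax, Bcl2l11, Bcl2l1, Bid and Bcl2. The ranges of neighbours overlapped from Bcl2a1d to Bak1 and for Bcl2l11 and Bcl2l1, but within each PLG sample every neighbour pair kept this order. Without PLG, Bak1 exceeded Bcl2a1d and Bcl2a1d exceeded Bax in 3 of 5 samples each. The places of the Bcl2a1 genes in both orders depend on the treatment of multi-mapping reads, which is not given. Every place also depends on the gene lengths used, which count all annotated exons.

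The genes with the nearest profiles over the 10 samples were found by Euclidean distance of centred log2(FPKM + 1), as a description that the group difference dominates. Prdx6, a peroxiredoxin, was the nearest to both Bcl2a1a (distance 0.27) and Bcl2a1d (0.44), and went from 20.1 to 76.8 FPKM on average. Bcl2a1b had no neighbour closer than Arhgap28 (0.76). Dcaf11 and Pex5 were nearest to Mcl1 (0.13 and 0.15), Bhlhe41 and Dpy19l1 to Bcl2 (0.22 and 0.28), and Smim15 and Naa50 to Bcl2l1 (0.24 and 0.26). Rab12 and Cdkn1b, a cyclin-dependent kinase inhibitor, were nearest to Bcl2l11 (0.17 and 0.19), and Map4 and Lrrc8c to Bak1 (0.16 and 0.18). For Bax they were Ctr9 and Jpt1 (both 0.21), and for Bid Gorasp1 and Nelfcd (0.32 and 0.35). The second neighbours of the Bcl2a1 genes were Rab20 for Bcl2a1a (0.50), Tpbg for Bcl2a1b (0.80) and Itgb8 for Bcl2a1d (0.47).

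The counts for lists of other genes stand beside the 29.1% of all tested genes called higher and 31.3% called lower, so calls in both directions are what the whole table shows. Of 16 other family and BH3-related genes 15 were in the table and 10 passed the filter, of which 2 rose, 1 fell and 7 did not pass (median 0.10). Bcl2l14, a divergent relative, went from 0.264 ± 0.176 to 3.33 ± 0.428 FPKM. It passed the filter only through the PLG samples, where it was at 2.97 to 3.86 FPKM, against 0.092 to 0.475 FPKM in untreated samples, so it had to differ and its place among the 2 that rose is no support. Its difference depends on the pseudocount, at 1.78 with 1, 3.36 with 0.1 and 0.66 with 5. Pmaip1, which encodes the BH3-only protein Noxa, a partner of Mcl1 and A1, rose from 20.1 ± 2.31 to 27.5 ± 1.236 FPKM (difference 0.44, limma adjusted p = 0.000159). Bnip3l, a mitophagy receptor related to the BH3-only class, fell from 45.3 ± 2.27 to 33.0 ± 2.03 FPKM (difference -0.44, limma adjusted p = 6.47e-06).

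The remaining BH3-only genes did not pass the test. Bbc3, which encodes the p53-induced protein Puma, was at 8.62 ± 1.29 FPKM in untreated and 8.65 ± 1.242 FPKM in PLG samples, with a 95% confidence interval of the difference from -0.23 to 0.24. Bmf was at 8.86 ± 0.951 and 8.94 ± 0.6996 FPKM (interval -0.16 to 0.19), Bad at 8.03 ± 1.70 and 8.77 ± 1.47 FPKM (interval -0.17 to 0.41), and Bnip3 at 3.30 ± 0.393 and 3.38 ± 1.08 FPKM (interval -0.34 to 0.33). The pro-survival gene Bcl2l2, which encodes Bcl-w, was at 7.55 ± 1.34 and 7.995 ± 0.512 FPKM (interval -0.12 to 0.29), and passed as higher without untreated 2 (0.17, limma adjusted p = 0.0484). Bcl2l12 and Bcl2l13 did not pass either. Bok, Bik, Hrk, Bcl2l15 and Bcl2a1c lay under the filter, none of them with a group mean above 0.741 FPKM, and Bcl2l10 was not analysed here.

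Of 12 tested genes of the apoptosome and effector caspase list, which act downstream of the mitochondria, 5 rose, 3 fell and 4 did not pass (median 0.07). Htra2, a mitochondrial protease that counters caspase inhibitors once released, rose from 10.5 ± 1.23 to 17.4 ± 0.567 FPKM. Casp9, the caspase that the apoptosome activates, fell from 11.1 ± 0.868 to 8.26 ± 0.447 FPKM (-0.39, limma adjusted p = 0.000146). Casp6, another caspase gene, named after its values were seen, fell from 2.85 ± 0.394 to 1.90 ± 0.312 FPKM (-0.41, limma adjusted p = 0.00250). The caspase inhibitor Xiap, at 13.5 ± 1.05 and 13.2 ± 1.18 FPKM, and Aifm1, at 7.77 ± 1.026 and 6.77 ± 0.326 FPKM, did not pass, although Aifm1 passed as lower in 2 of 24 alternatives. The list's count of higher genes was 3 to 6, and of lower genes 1 to 4, over 23 alternatives.

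On the route from death receptors to Bid, 2 of 8 tested genes rose, 2 fell and 4 did not pass (median 0.19). Cflar, which encodes the caspase 8 inhibitor cFLIP, rose from 13.7 ± 0.934 to 43.8 ± 3.24 FPKM (difference 1.61, limma adjusted p = 6.86e-11), and the death receptor Fas from 7.01 ± 1.02 to 13.5 ± 1.38 FPKM. The TNF receptor gene Tnfrsf1a fell from 52.1 ± 2.60 to 40.7 ± 2.14 FPKM and Ripk1, a kinase of its signalling complex, from 13.1 ± 0.724 to 10.6 ± 0.522 FPKM. With common-sum scaling Ripk1 did not pass (-0.24, limma adjusted p = 0.107). Casp8, at 25.1 ± 2.65 and 24.3 ± 1.62 FPKM, did not pass, and neither did the adaptor Tradd, at 9.47 ± 0.922 and 10.6 ± 0.252 FPKM, which passed as higher in 4 of 24 alternatives, among them without untreated 2 (0.17, limma adjusted p = 0.0495) or untreated 5 (0.19, limma adjusted p = 0.0250). Over 23 alternatives 2 to 5 genes of this list were higher.

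Of 10 genes of outer membrane channels and mitochondrial dynamics 3 rose, 6 fell and 1 did not pass (median -0.22). The channel gene Vdac3 rose from 11.8 ± 1.63 to 19.1 ± 2.47 FPKM and the fission gene Dnm1l from 14.7 ± 1.98 to 19.8 ± 0.857 FPKM. The fusion genes Mfn2, from 15.4 ± 1.29 to 11.2 ± 1.17 FPKM, and Opa1, from 11.6 ± 1.33 to 8.93 ± 0.530 FPKM, fell. Vdac1 was at 37.5 ± 2.51 and 32.4 ± 5.74 FPKM and did not pass, but passed as lower in 5 of 24 alternatives, among them without PLG 3 (-0.30, limma adjusted p = 0.00537). With common-sum scaling 1 of these genes was called lower in place of 6, and Opa1 no longer passed (-0.30, limma adjusted p = 0.0549).

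Of 18 tested regulators of BCL2 family genes and proteins 9 rose, 5 fell and 4 did not pass (median 0.38). Rel and Nfkb1, subunits of NF-kB, rose from 15.3 ± 1.27 to 65.8 ± 3.31 FPKM and from 15.3 ± 0.658 to 53.7 ± 3.44 FPKM. Stat3, which carries cytokine signals, rose from 17.4 ± 0.779 to 43.7 ± 1.99 FPKM, and the survival kinase gene Pim3 from 4.99 ± 0.627 to 20.9 ± 1.47 FPKM. Usp9x, a deubiquitinase known to stabilize the Mcl1 protein, was at 20.2 ± 0.759 and 19.5 ± 0.653 FPKM and did not pass, although 2 of 24 alternatives called it lower. Stat5b, at 20.2 ± 1.56 and 22.1 ± 0.719 FPKM, did not pass, and passed as higher in 3 of 24 alternatives, among them without untreated 2 (0.16, limma adjusted p = 0.0244).

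Of 12 tested targets of p53, a class that also holds Bax and Bbc3, 5 rose, 6 fell and 1 did not pass (median -0.18). The cell cycle inhibitor Cdkn1a rose from 61.8 ± 4.84 to 124 ± 3.87 FPKM and Mdm2, which turns p53 over, from 39.3 ± 1.86 to 70.5 ± 1.62 FPKM. Zmat3 fell from 11.0 ± 0.678 to 3.78 ± 0.229 FPKM and Ccng1 from 88.1 ± 3.24 to 47.9 ± 2.49 FPKM. Tigar was at 7.95 ± 0.569 and 8.22 ± 0.629 FPKM and did not pass.

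**Figure D5:**
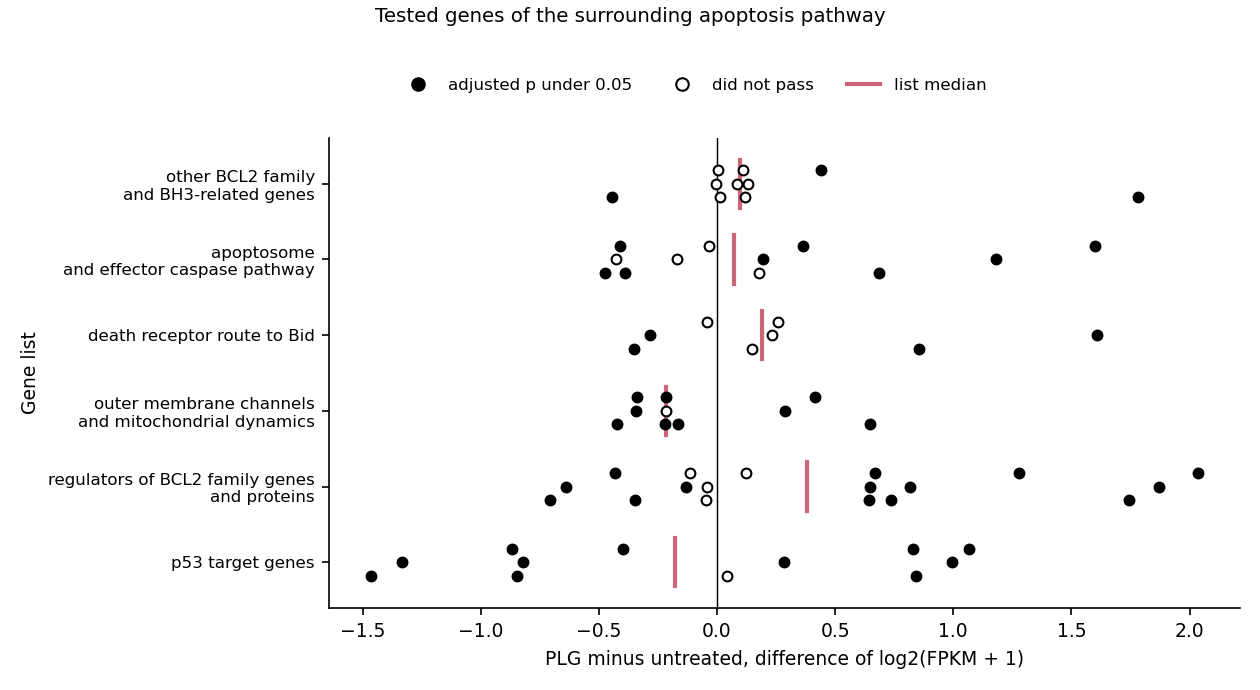
Difference of log2(FPKM + 1), PLG minus untreated, for the tested genes of 6 lists around the BCL2 family; filled points passed at an adjusted p under 0.05, open points did not, and the red bar is the list median. In every list genes lie on both sides of 0, and the medians lie between -0.22 and 0.38.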

How the data were processed

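RNA of 10 samples (5 untreated, 5 PLG) was sequenced, and the deposited table gives FPKM for 16936 protein-coding genes with each gene's length and position in other columns, per the file headers. Named in the submitters' processing notes, without saying what each did, are STAR 2.7.3a, featureCounts 2.0.0, cutadapt 2.10, FastQC 0.11.9, DESeq2 1.24.0 and GRCm38.p6 as the build; the annotation release, strandedness and treatment of multi-mapping reads: not given in the sources used here. Positions of all 10 members equal those of GENCODE M21. Groups came from the sample titles. log2(FPKM + 1) of 9997 genes (at least 1 FPKM in 5 samples) was compared with limma 3.58.1 (R 4.3.3, intensity trend, threshold 0.05); exact tests used scipy 1.17.1. The limma step was checked on simulated data. FPKM times length fell on whole multiples of 1 step per sample (100% of values tested within 0.1 read), which gave the reads; intervals reflect the samples' spread. Members and lists were chosen with earlier results of these data known. List genes named are the 4 with the smallest p and the 2 most abundant that did not pass, and every gene of the BCL2 family list; Foxo1, Foxo3 and Casp6 were named after their values were seen. Some genes that the rule names are not reported here. Alternatives covered pseudocount, filter, scaling, moderation, weights, a replicate block, voom on recovered reads, summed paralogs and leaving out each sample; removal of 4 repeat-like gene models (0.119% to 5.34% of reads) with common-sum scaling was chosen after seeing the data. Motifs were chosen after seeing the promoters. No protein sequences were used.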

Additional observations from a re-analysis of the deposited data

Results flagged for a closer look

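Single samples stood apart from the other 4 of their group in 9 of 112 groups of 5 checked, by a gap to the nearest sample that was more than 0.71 of the group's range; chance flags about 1 in 20 groups. PLG 2 was low in 3 of these. It had Bax at 24.6 FPKM, against 32.0 to 34.4 FPKM in the other PLG samples, Bmf at 7.73 FPKM against 9.02 to 9.42, and Tigar at 7.135 FPKM against 8.29 to 8.77. Nfkb1 in untreated 4 was at 14.2 FPKM, against 15.4 to 15.8 FPKM. Casp6 in untreated 2 was at 3.55 FPKM, against 2.60 to 2.75 FPKM, and in PLG 3 at 2.44 FPKM, against 1.71 to 1.91 FPKM. The remaining flags are genes near 0: Bcl2l15 at 0.15 FPKM in untreated 4 and 0.036 FPKM in PLG 2, and Hrk at 0.032 FPKM in PLG 1, each with the other 4 samples listed at 0.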

How the results depend on the processing

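The calls of Bcl2, Bcl2l1, Mcl1, Bcl2a1a, Bcl2a1b, Bcl2a1d, Bcl2l11 and Bak1 kept direction and threshold in every alternative that tested them. In 23 alternatives 6 family members were higher; 2 were lower in all that left out a sample, 3 in those that called Bax, and 1 family member with a filter of 5 FPKM, which removed Bcl2. Bid did not pass in any, and leaving out a sample moved it over -0.0064 to 0.17. Leaving out a sample gave 2462 to 2967 tested genes called higher and 2781 to 3037 lower, against 2914 and 3126. A replicate block gave 2797 and 2988 and changed no member's call. Same-numbered samples deviated with correlations of -0.121 to 0.0988. These cannot tell whether the numbers pair the samples, since a pair effect may be small beside other spread. Directions of named genes turned only for ones that did not pass. With median-of-ratios scaling Bnip3 was at 0.026 and Xiap at 0.0063; with common-sum scaling Bnip3 at 0.039, Xiap at 0.013, Casp8 at 0.0058 and Usp9x at 0.0016; with a pseudocount of 5 Bnip3 at 0.0066. With quantile normalization Bmf was at -0.015, Bbc3 at -0.028 and Bnip3 at 0.012; with quality weights Bbc3 at -0.086 and Bnip3 at 0.029; with voom Bbc3 at -0.048; without repeat-like models Bmf at -0.048, Bbc3 at -0.058 and Tigar at -0.019. Leaving out a sample gave Bnip3 -0.12 to 0.14, Bbc3 -0.044 to 0.077, Bmf -0.040 to 0.061, Bcl2l12 -0.11 to 0.28, Casp8 -0.087 to 0.011 and Xiap -0.068 to 0.0074. The cause was not tested. The edgeR test on recovered reads was not run, since the values are FPKM. Depth allowed 423 or more reads per member and sample.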

Other observations

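The share of Bcl2a1b in the summed Bcl2a1 level varied between samples, from 17.1% to 30.4% in untreated and from 17.3% to 24.1% in PLG samples. In untreated 5 it was at 31.7 FPKM, near Bcl2a1a at 32.3 FPKM, while in untreated 2 it was at 15.97 FPKM beside 35.9 FPKM of Bcl2a1a. With PLG, both Bcl2a1b and Bcl2a1d were highest in PLG 4 (97.0 and 185 FPKM) and lowest in PLG 2 (49.9 and 118 FPKM). Bcl2a1a was also highest in PLG 4 (120.4 FPKM) but lowest in PLG 5 (92.8 FPKM). The reads of Bcl2a1b per sample ran from 423 to 3491. The part of shared sequence in this scatter was not tested.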
